A study of Mus musculus with 12 samples.

Results

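Atf4 and the stress and amino acid supply genes around it were followed across 12 arrays of cultured mouse bone marrow cells. The 43 genes comprised transcription factors, feedback and stress effectors, enzymes of serine, one-carbon and other amino acid metabolism, amino acid transporters and cytosolic tRNA ligases. The set was chosen by the array values of unsorted marrow that received Cre, after Trib3, Slc1a4 and Aldh1l2 had been seen at low levels there, so that comparison is given below as a description, with no test. A gene counted as measured where 3 or more of the 12 arrays detected one of its probes (detection p-value below 0.05), which left 37 of the 43, out of 10315 genes measured. Mthfd1l and Slc7a5 matched no probe in the annotation used. Psph, Cbs, Pck2 and Slc7a1 had probes that were detected on 0 arrays, whereas the least often detected members that were kept, Vldlr, Cth and Stc2, were detected on 6, 7 and 7 arrays.

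All samples were marrow cells of mice aged 3 months, and both arms carried the same conditional allele (Bcor Fl/Y), in which loxP sites flank exons 9 and 10 of Bcor. The cells were grown with 20% serum, stem cell factor at 50 ng/ml, IL6 at 25 ng/ml and IL3 at 10 ng/ml, infected with an empty retrovirus (control) or a retrovirus that expresses Cre recombinase, and selected with puromycin. With 3 arrays each, the 4 groups were control and Cre cells sorted for CD34 after infection (CD34+) and control and Cre cells that were not sorted (BM). Each CD34+ arm held 2 marrows, number 2 on repeat arrays (F2-1 and F2-2) and number 4 on a single array (F4). The main fit counts F2-1 and F2-2 as separate arrays although they share a marrow. The labels do not say whether BM repeats 1, 2 and 3 are separate animals. In both populations the p-values therefore cover only the scatter among these arrays, which may in part be technical. Marrow grown on stem cell factor and IL3 tends to yield mast cells.

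Atf4 is a basic leucine zipper factor whose mRNA is translated more when eIF2 is phosphorylated, as happens under amino acid shortage, endoplasmic reticulum stress, haem shortage or viral RNA. It switches on genes for amino acid import, for the synthesis of serine, glycine, asparagine and cysteine, and for the charging of tRNAs. It also switches on genes such as Ddit3 and Trib3 that limit growth or restrain Atf4 itself. In blood cells this response is known from stem cells and erythroid precursors, where it limits the damage done by unfolded protein or by shortage of haem. Because much of the control of Atf4 lies in translation, its mRNA level is only part of its activity.

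Genes that Atf4 controls directly often hold a composite site that joins an Atf and a C/EBP element, and promoters were therefore searched for the letters TGATGNAAN and the reverse complement NTTNCATCA. The windows were the RefSeq promoters of assembly GRCm38.p6, which run from 250 bases before to 50 bases after the annotated start, and 33 members matched a symbol there. A match was found for 13 of these 33 members (39.4%), against 4.5% of 27025 genes. The stricter form TGATGCAAT, which lies within the looser one, was found for 3 members (Nupr1, Aars and Iars), against 0.222% of genes. Of the 10 members with a promoter window that were lower past the threshold in BM Cre, 6 held the looser motif. So did 5 of 17 that did not pass. This split uses the comparison that chose the genes, with Trib3 and Slc1a4 among the 6, so nothing is read from it. Slc7a11, the only member that was higher past the threshold, held 2 matches that do not overlap each other. The following 4 promoters belong to the members with the largest BM differences among those with a match, and are shown so that the position of the match (capitals) can be read against the start. Each is printed 5′ to 3′ on the gene's strand, at chr2:152344011-152344310 (minus strand) for Trib3, chr11:20332664-20332963 (minus) for Slc1a4, chr7:126625421-126625720 (minus) for Nupr1 and chr2:119350992-119351291 (plus) for Chac1.
Trib3: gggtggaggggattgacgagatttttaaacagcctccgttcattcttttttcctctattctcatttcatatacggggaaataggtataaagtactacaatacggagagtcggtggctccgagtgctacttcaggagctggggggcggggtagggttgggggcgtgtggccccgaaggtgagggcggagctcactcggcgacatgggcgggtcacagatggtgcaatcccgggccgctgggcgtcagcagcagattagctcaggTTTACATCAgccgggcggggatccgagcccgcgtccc
Slc1a4: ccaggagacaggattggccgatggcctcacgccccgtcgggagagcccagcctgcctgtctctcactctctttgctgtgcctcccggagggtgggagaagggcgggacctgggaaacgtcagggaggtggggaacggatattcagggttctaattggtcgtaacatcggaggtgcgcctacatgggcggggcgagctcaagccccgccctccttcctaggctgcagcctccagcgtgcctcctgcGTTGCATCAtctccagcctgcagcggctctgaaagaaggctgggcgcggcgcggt
Nupr1: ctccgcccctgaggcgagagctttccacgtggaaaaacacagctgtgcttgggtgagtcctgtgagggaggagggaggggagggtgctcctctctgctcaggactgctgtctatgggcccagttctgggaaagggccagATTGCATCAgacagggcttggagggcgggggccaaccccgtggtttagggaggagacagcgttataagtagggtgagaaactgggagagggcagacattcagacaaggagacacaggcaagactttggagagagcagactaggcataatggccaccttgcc
Chac1: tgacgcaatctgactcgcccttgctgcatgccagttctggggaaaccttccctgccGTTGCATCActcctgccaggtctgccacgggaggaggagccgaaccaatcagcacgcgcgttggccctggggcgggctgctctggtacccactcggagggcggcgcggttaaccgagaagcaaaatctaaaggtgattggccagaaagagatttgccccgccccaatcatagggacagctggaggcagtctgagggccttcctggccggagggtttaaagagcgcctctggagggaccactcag
In these windows the match began at position 14 for Trib3 and at position −5 for Slc1a4, close to the start, and at −111 for Nupr1 and −194 for Chac1, where position 1 is the annotated start. All 4 matches were in the reverse orientation, and the one in Nupr1 is the strict form. A match of letters is a description of the window and does not show binding.

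The CD34+ arrays detected 15571 to 16372 probes each, and the BM arrays 16985 to 17742. Bcor, the targeted gene, averaged 9.75 in BM control and 8.60 in BM Cre on the log2 scale, a difference of −1.15 ± 0.24 (SE, limma, adjusted p = 0.00624). In CD34+ cells it averaged 9.80 in control and 9.32 in Cre (−0.48 ± 0.24, limma adjusted p = 0.463), with −0.74 in marrow number 2 and 0.03 in number 4. Whether its probe lies in the deleted exons is not given in the sources used here. Cd34 itself averaged 10.26 in CD34+ control, 10.07 in CD34+ Cre, 10.17 in BM control and 9.05 in BM Cre, so sorted and unsorted control cells differed by 0.09. All 13 mast cell markers were detected in every group, with summed linear intensities of 332000 to 350000 (CD34+ control), 267000 to 349000 (CD34+ Cre), 357000 to 418000 (BM control) and 279000 to 309000 (BM Cre). The 10 late granulocyte markers measured reached a sum of 257 to 274 (CD34+ control), 265 to 394 (CD34+ Cre), 1320 to 7730 (BM control) and 88600 to 121000 (BM Cre). Ltf, Camp and Ngp were among the 7 of these markers that stayed undetected on all CD34+ arrays.

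The values that prompted the gene set came from BM arrays, but all 12 arrays entered the detection filter and the choice of probe. In sorted CD34+ cells none of the 37 members was called between Cre and control (limma, adjusted p under 0.05), against 0.727% of all genes. Of all genes, 0.456% were called up and 0.271% down. At an unadjusted p under 0.05 there were 2, Cth and Stc2, against 12% of all genes. The median difference of the members was 0.21 on the log2 scale, against 0.01 over all genes, and 27 members lay above zero and 10 below. All 3 Cre arrays lay above all 3 control arrays for 5 members, Stc2, Shmt2, Aldh1l2, Cth and Iars, a pattern shown by 7.36% of all genes, and the reverse pattern, shown by 7.09% of genes, occurred for 0 members. With the marrow and repeat numbers as a block, 2 members were called, Cth higher and Slc38a2 lower. One member, Cth, was called when the CD34+ Cre F4 array or both number 4 arrays were left out. By marrow, the members' median difference was 0.27 in number 2, where 28 of 37 lay above zero, and 0.05 in number 4, where 21 did.

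In unsorted BM cells the same genes lay mostly lower with Cre. The median difference of the 37 members was −0.65 on the log2 scale, against −0.07 over all genes, and 34 members lay below zero, as did 57% of all genes. Past the threshold of an adjusted p of 0.05 there were 12 members (16.7% of all genes passed), 11 of them lower (8.13% of genes) and 1 higher (8.59% of genes). Without Trib3, Slc1a4 and Aldh1l2, which prompted the choice, 8 of 34 were lower and 1 higher past the threshold, with a median of −0.63. All Cre arrays lay below all control arrays for 14 members (23.4% of all genes) and above them for Slc7a11 alone (17.3% of genes). Because this comparison chose the genes, nothing is read from these counts. The count of 12 became 4 without BM control array 2, without BM control array 3 or without BM Cre array 1, and 6 without BM Cre array 3. It became 2 without both arrays of repeat 3, 5 in the authors' table and 24 with the repeat number as a block. Nupr1 and Slc7a11 passed under each of the 17 alternatives run for this comparison, and each of the other 10 missed the threshold under at least 1.

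Markers of other cell types also differed between the BM arms. All 10 late granulocyte markers were higher in BM Cre, as were 5 of 6 primary granule and 5 of 6 eosinophil markers past the threshold, while 7 of 13 mast cell markers were lower and 1 higher. Also higher were 4 of 7 monocyte and macrophage, 3 of 4 erythroid and 2 of 2 stroma and endothelium markers that were measured. The stroma and endothelium markers Col1a1, Col1a2, Col3a1, Pdgfrb and Cdh5 were undetected on all arrays, as were the erythroid Alas2 and Slc4a1. Of 4 basophil markers 2 were higher and 1 lower, and of 6 megakaryocyte markers 2 were higher and 2 lower. Mmp8, Prtn3, Car1 and Vcam1 were detected on BM Cre arrays alone and kept only through that group, so the detection filter fixed their direction. Of all genes, 8.59% were higher and 8.13% lower past the threshold. In such bulk samples, fewer cells of a type and less RNA per cell cannot be told apart, and the part that these markers' cell types play in the members' values was not tested. In CD34+ cells, where Ltf, Camp and Ngp were undetected in both arms, 0 of 10 late granulocyte markers were called (limma), and 0 had an unadjusted p under 0.05. Other markers did differ between the CD34+ arms. The mast cell receptor Mrgprb2 fell by 5.45 ± 0.71 (limma adjusted p = 0.00372), and 5 of 13 mast cell markers were lower without overlap (7.09% of all genes), with 5 at an unadjusted p under 0.05 (12% of genes). Fcgr1, of the monocyte list, and Gp1bb, of the megakaryocyte list, were undetected on all CD34+ control arrays and rose by at least 2.01-fold and at least 1.28-fold (limma adjusted p = 0.0455 and 0.0266), with Gp1bb detected on 2 of 3 Cre arrays. Their part in the CD34+ values of the members was not tested either.

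**Figure D1:**
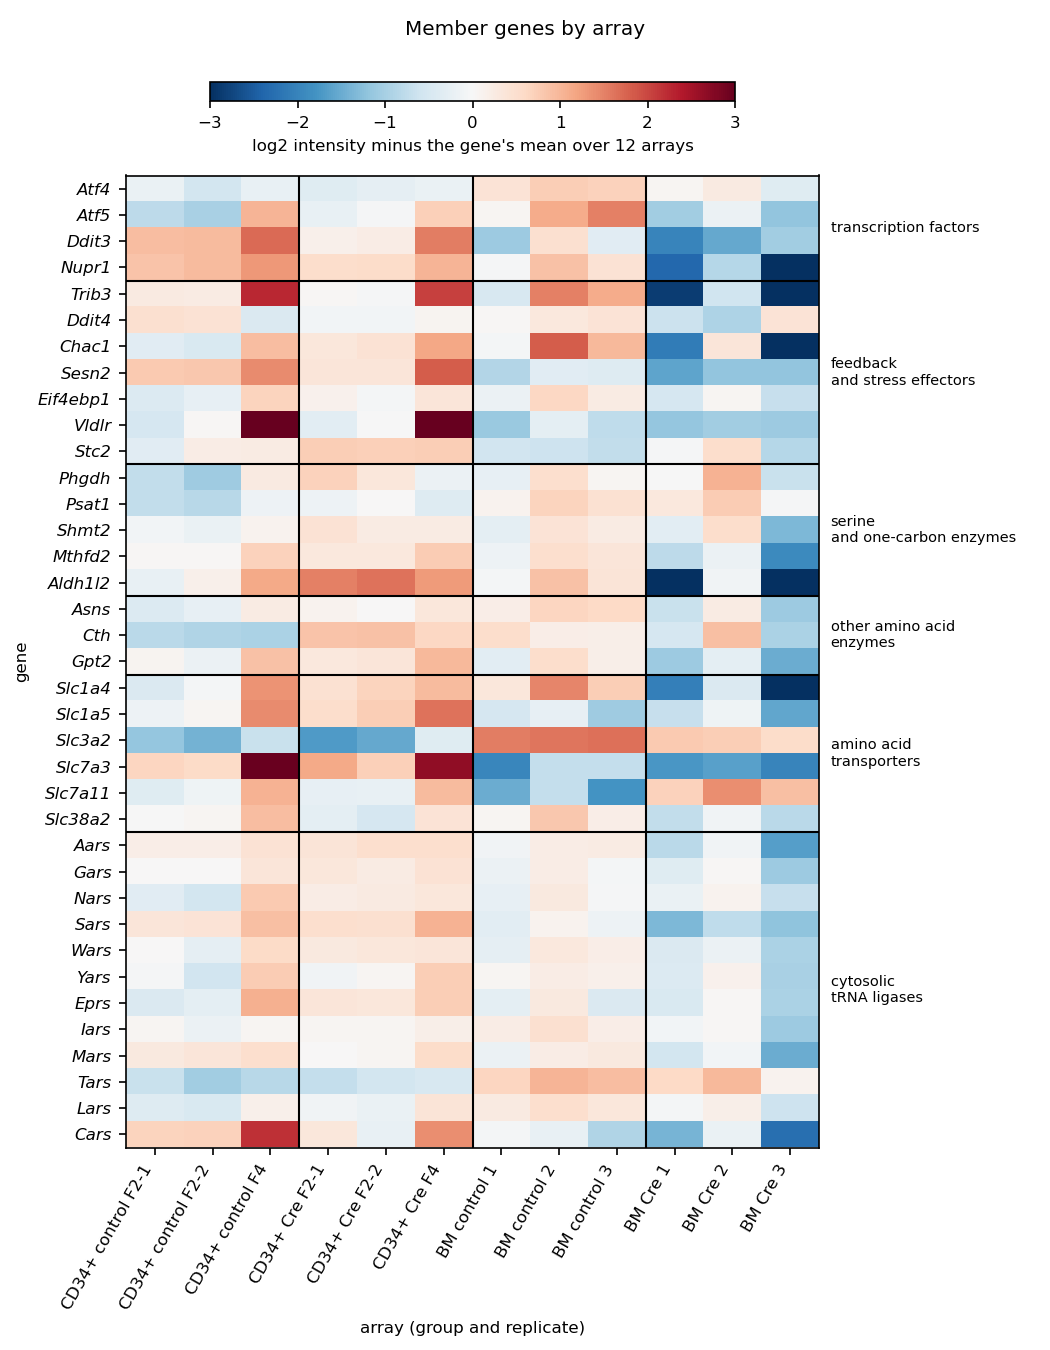
Each row is a member gene and each column an array, coloured by the log2 intensity minus the gene's mean over the 12 arrays, with values beyond 3 in the end colours. BM Cre columns 1 and 3 are blue for most rows, BM Cre 2 lies closer to the controls, and the F4 columns are the reddest of the CD34+ columns.

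Atf4 had the smallest difference of the transcription factors in BM. It read 13.63, 13.98 and 13.92 on the BM control arrays and 13.29, 13.49 and 12.88 on the BM Cre arrays. All Cre arrays lay below all controls, and the mean difference was −0.62 ± 0.16 (SE), or 65% of the control level. In CD34+ cells Atf4 read 13.03, 12.68 and 13.01 in control and 12.86, 12.97 and 13.04 in Cre, and the groups overlapped (0.05 ± 0.16, limma adjusted p = 0.937). Its other kept probe differed by −0.95 in BM and by −0.16 in CD34+ cells.

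Nupr1, a small stress-induced chromatin protein, had the largest difference among the factors. On the BM control arrays it read 10.31, 11.25 and 10.80, and on the BM Cre arrays 8.01, 9.50 and 7.06. The groups did not overlap, and the mean stood at 16.5% of control (−2.60 ± 0.47). CD34+ cells read 11.21, 11.30 and 11.67 in control and 10.89, 10.92 and 11.38 in Cre, where the arrays overlapped (−0.33 ± 0.47, limma adjusted p = 0.833).

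Atf5, a relative of Atf4 that is likewise controlled in translation, read 10.41, 11.49 and 11.87 in BM control and 9.32, 10.20 and 9.19 in BM Cre. It too showed no overlap, at 31.1% of control (−1.69 ± 0.52). Its CD34+ values were 9.57, 9.39 and 11.38 in control and 10.15, 10.32 and 11.07 in Cre (0.40 ± 0.52, limma adjusted p = 0.817), and F4 was the high array in both arms. Ddit3, which encodes the death-promoting factor Chop, read 9.61, 11.19 and 10.36 in BM control and 8.73, 9.18 and 9.67 in BM Cre. Cre array 3 lay above control array 1, and the difference of −1.19 ± 0.44 was not past the threshold. Ddit3 read 11.63, 11.66 and 12.40 in CD34+ control and 10.85, 10.92 and 12.24 in CD34+ Cre (−0.56 ± 0.44, limma adjusted p = 0.661).

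**Figure D2:**
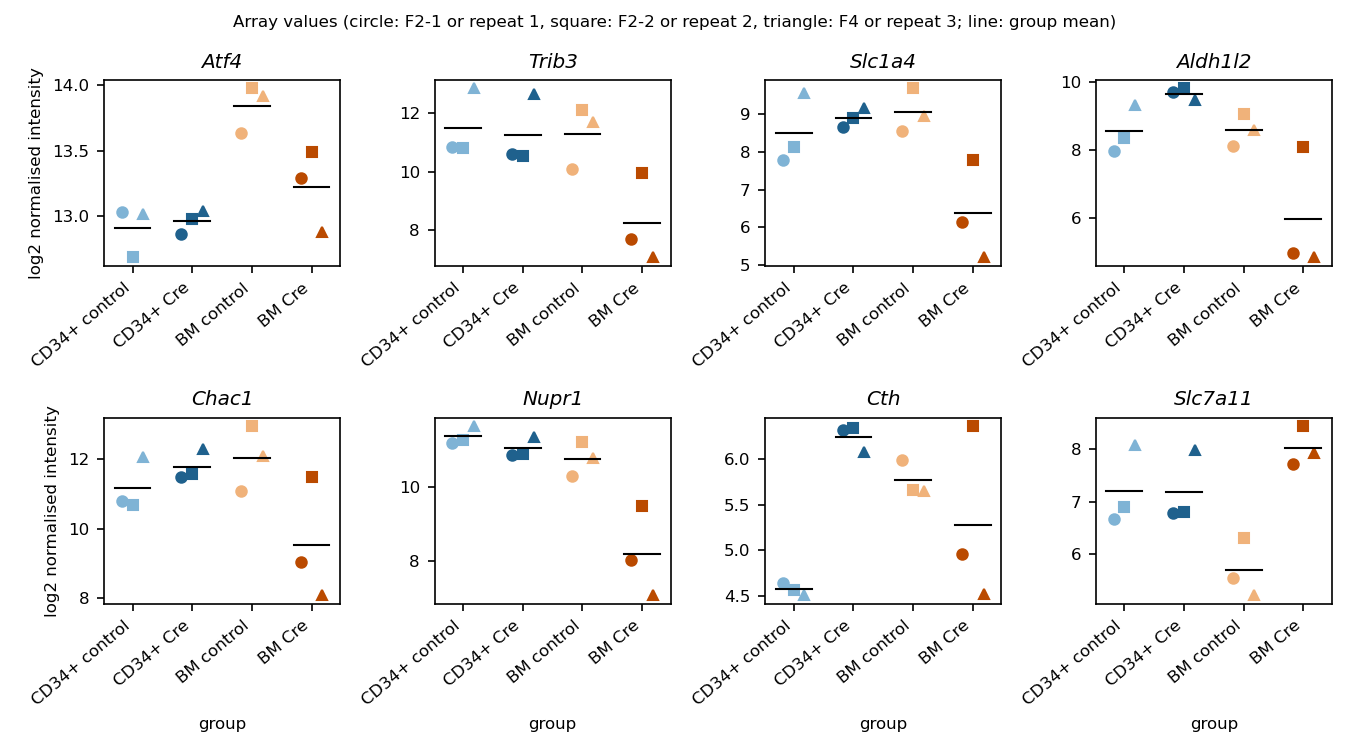
Log2 normalised intensity on each array (circle F2-1 or repeat 1, square F2-2 or repeat 2, triangle F4 or repeat 3) with the group mean as a line, for 8 members in the 4 groups. BM Cre arrays 1 and 3 are low for Trib3, Slc1a4, Aldh1l2, Chac1 and Nupr1, Slc7a11 is high on all 3 BM Cre arrays, and Cth separates the CD34+ arms.

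Among feedback and stress effectors, Trib3, a pseudokinase that binds Atf4 and restrains it, had the largest BM difference of any member. It read 10.08, 12.09 and 11.68 in BM control and 7.72, 9.96 and 7.09 in BM Cre. The groups were separated only narrowly, since Cre array 2 lay just under control array 1, and the mean stood at 12.3% of control (−3.03 ± 0.84). Its other kept probes differed by −2.33 and −2.29. In CD34+ cells Trib3 read 10.83, 10.81 and 12.82 in control and 10.60, 10.53 and 12.63 in Cre. There the F4 array stood well above both number 2 arrays in each arm, and the arms did not separate (−0.23 ± 0.84, limma adjusted p = 0.945).

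Chac1, which breaks down glutathione, read 11.07, 12.95 and 12.10 in BM control and 9.04, 11.50 and 8.08 in BM Cre. The groups overlapped, because Cre array 2 lay above control array 1, although the mean was 17.6% of control (−2.50 ± 0.74). Chac1 read 10.79, 10.68 and 12.07 in CD34+ control and 11.48, 11.57 and 12.31 in CD34+ Cre (0.61 ± 0.74, limma adjusted p = 0.802). Each Cre array was higher than the control array of its own number, within overlapping ranges.

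Sesn2, a leucine sensor that inhibits mTORC1, read 7.33, 7.85 and 7.81 in BM control and 6.63, 7.01 and 7.02 in BM Cre. All Cre arrays lay lower, yet the difference of −0.78 ± 0.36 did not pass the threshold. Its CD34+ values were 8.98, 9.01 and 9.62 in control and 8.57, 8.57 and 10.01 in Cre (−0.15 ± 0.36, limma adjusted p = 0.907). Ddit4, another mTORC1 inhibitor, and Eif4ebp1, a repressor of cap-dependent translation, differed by −0.64 ± 0.32 and −0.61 ± 0.29 in BM, and neither passed. Stc2, a secreted stanniocalcin, was detected on 0 of 3 BM control arrays and on 2 of 3 BM Cre arrays. The bound on the group means was at least 1.27-fold higher with Cre, not past the threshold. Cre array 3 read 4.93, below all the controls, so the arrays overlapped. In CD34+ cells, where 2 of 3 control and 3 of 3 Cre arrays detected it, Stc2 differed by 0.69 ± 0.29 (limma adjusted p = 0.382).

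Vldlr, a lipoprotein receptor, differed by marrow number, with like values in both arms (it was singled out after its values were seen). It read 8.92 on the F4 array of both CD34+ arms, against 5.29 to 5.83 on the 4 arrays of marrow number 2. On the BM arrays it lay between 4.63 and 5.50 and was detected on 1 of 6. The difference between CD34+ arms was 0.05 ± 0.94 (limma adjusted p = 0.992).

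Of the 5 serine and one-carbon enzymes measured, 2 were lower past the threshold in BM (8.13% of all genes), with a median of −0.50. Phgdh and Psat1, which carry out the opening steps of serine synthesis, differed by 0.02 ± 0.43 and −0.07 ± 0.23, and Shmt2, which turns serine into glycine in mitochondria, by −0.50 ± 0.36. The members past the threshold were the mitochondrial folate enzymes Mthfd2 and Aldh1l2, the latter among the genes that prompted the choice, and differences between enzymes were not tested. Phgdh read 9.45, 10.20 and 9.75 in BM control and 9.68, 10.75 and 9.04 in BM Cre, with the Cre arrays on both sides of the controls. It read 8.96, 8.64 and 9.96 in CD34+ control and 10.39, 10.03 and 9.53 in CD34+ Cre (0.80 ± 0.43, limma adjusted p = 0.501). The overlap there came from marrow number 4, where Cre lay below control.

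Mthfd2 read 12.84, 13.48 and 13.36 in BM control and 12.21, 12.82 and 11.07 in BM Cre. The Cre arrays lay below the controls, array 2 only just, at 43.7% of the control mean (−1.19 ± 0.37). The CD34+ arrays read 13.01, 13.03 and 13.69 in control and 13.30, 13.30 and 13.75 in Cre (0.21 ± 0.37, limma adjusted p = 0.871).

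Aldh1l2, which oxidises mitochondrial formyl-folate, differed in opposite directions in the populations. It read 8.13, 9.08 and 8.60 in BM control and 4.99, 8.09 and 4.86 in BM Cre, where only array 2 detected it. All Cre arrays lay below the controls, array 2 by a small margin, and the difference was −2.63 ± 0.69, a size that depends on the offset added to signals near background. In CD34+ cells it read 7.97, 8.36 and 9.34 in control and 9.71, 9.82 and 9.48 in Cre. Every Cre array lay above every control array, but the difference of 1.12 ± 0.69 did not pass the test (limma adjusted p = 0.556). By marrow it was 1.60 in number 2 and 0.15 in number 4. A further probe, detected on all CD34+ arrays, differed by 1.24 in CD34+ cells and −1.18 in BM, and the remaining one, undetected on all BM arrays, by 0.35 in CD34+ cells. Aldh1l2 and Iars were the members on opposite sides without overlap in both populations (0.737% of all genes), and 0 members showed the mirror pattern (0.553% of genes).

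Of the other amino acid enzymes, Cth, the cystathionine lyase that releases cysteine, came nearest to a call in CD34+ cells. It read 4.65, 4.57 and 4.51 on the CD34+ control arrays, none of which detected it, and 6.32, 6.33 and 6.08 on the CD34+ Cre arrays, all of which did. The groups were well apart, at least 1.66-fold, and both marrows moved alike (1.72 in number 2 and 1.57 in number 4), yet the difference of 1.67 ± 0.36 missed the threshold (limma adjusted p = 0.0629). With the marrow and repeat numbers as a block the adjusted p was 0.0193 (limma), and over all alternatives it ran from 0.00182 to 0.585 with the difference between 1.06 and 2.22. In BM, Cth read 5.99, 5.66 and 5.65 in control and 4.96, 6.36 and 4.52 in Cre, with array 2 above and the others below the controls (−0.48 ± 0.36).

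Asns, which makes asparagine, read 13.09, 13.53 and 13.49 in BM control and 12.23, 13.14 and 11.80 in BM Cre. Its Cre array 2 lay within the control range, and the mean was 50.6% of control (−0.98 ± 0.29). Asns read 12.48, 12.65 and 13.14 in CD34+ control and 12.98, 12.91 and 13.24 in CD34+ Cre (0.28 ± 0.29, limma adjusted p = 0.753). Gpt2, the mitochondrial alanine transaminase, read 7.36, 8.21 and 7.86 in BM control and 6.58, 7.40 and 6.19 in BM Cre, where array 2 again overlapped the controls (−1.09 ± 0.36, not past the threshold). In CD34+ cells Gpt2 read 7.77, 7.51 and 8.57 in control and 8.01, 8.05 and 8.65 in Cre (0.28 ± 0.36, limma adjusted p = 0.813).

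Of the 6 amino acid transporters measured, 1 was lower and 1 higher past the threshold in BM (8.13% and 8.59% of all genes), with a median of −0.78. Slc1a4, a carrier of serine, alanine and cysteine, read 8.54, 9.67 and 8.94 in BM control and 6.15, 7.77 and 5.21 in BM Cre. The groups did not overlap, Cre array 3 did not detect the gene, and the mean was 15.7% of control (−2.67 ± 0.59). The CD34+ arrays read 7.78, 8.14 and 9.55 in control and 8.66, 8.88 and 9.16 in Cre (0.41 ± 0.59, limma adjusted p = 0.836). As with Trib3, the F4 control array was high, and it lay above all the Cre arrays.

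Slc7a11, the cystine and glutamate exchanger that feeds glutathione synthesis, ran against the other members in BM. It read 5.55, 6.31 and 5.23 in control and 7.71, 8.43 and 7.92 in Cre. All Cre arrays were higher, by 2.33 ± 0.44, and it was the single member above zero in all 3 BM pairs of equal repeat number. Its other kept probes gave 1.14 and 0.82. The probe at 0.82 was detected on the BM Cre arrays alone, so its direction was fixed by the detection filter. In CD34+ cells it read 6.66, 6.89 and 8.07 in control and 6.78, 6.81 and 7.99 in Cre, nearly equal by marrow (−0.02 ± 0.44, limma adjusted p = 0.993).

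Slc3a2, the heavy chain that carries Slc7a11 and Slc7a5 to the membrane, read 11.23, 11.31 and 11.36 in BM control and 10.49, 10.44 and 10.24 in BM Cre. It thus lay lower on all Cre arrays, with the groups far apart relative to their spread, although −0.91 ± 0.30 did not pass with the spread shared over all 12 arrays. In CD34+ cells Slc3a2 read 8.53, 8.28 and 9.02 in control and 8.01, 8.16 and 9.34 in Cre (−0.11 ± 0.30, limma adjusted p = 0.928). Slc38a2, a glutamine and alanine carrier, differed by −0.90 ± 0.32 in BM without overlap and by −0.46 ± 0.32 in CD34+ cells (limma adjusted p = 0.601, and 0.0295 with the number block). Its other kept probes read −0.04 and 0.24 in CD34+ cells, so the probes of Slc38a2 disagree there. Slc1a5, the main glutamine carrier, and Slc7a3, a carrier of arginine and lysine, overlapped between arms in both populations, with BM differences of −0.18 ± 0.47 and −0.65 ± 0.64.

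All 12 cytosolic tRNA ligases measured lay below zero in BM, from −0.98 to −0.27 with a median of −0.58, and 2 of them, Aars and Sars, passed the threshold. Their 2 of 12 equals the 16.7% of all genes that passed, and 57% of all genes lay below zero. Aars, which charges alanine tRNA, read 11.95, 12.28 and 12.29 in BM control and 11.25, 11.94 and 10.40 in BM Cre, with array 2 only just below the controls (−0.98 ± 0.29). Sars, the serine ligase, read 9.89, 10.32 and 10.07 in BM control and 8.87, 9.47 and 9.02 in BM Cre (−0.98 ± 0.22). Sars was lower on every Cre array than on any control array, by a clear margin. Iars and Lars, for isoleucine and leucine, were also lower without overlap (−0.68 ± 0.24 and −0.54 ± 0.23), and neither passed. Cars, the cysteine ligase, read 7.08, 6.92 and 6.25 in BM control and 5.76, 6.93 and 4.88 in BM Cre, a wide scatter with overlap (−0.89 ± 0.57).

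In CD34+ cells 10 of the 12 ligases lay above zero, as did 50.8% of all genes, with a median of 0.19, and none was called (limma, with 0 at an unadjusted p under 0.05). Aars read 12.25, 12.27 and 12.50 in control and 12.45, 12.55 and 12.55 in Cre (0.18 ± 0.29, limma adjusted p = 0.857). Sars read 10.58, 10.62 and 11.11 in control and 10.72, 10.71 and 11.26 in Cre (0.12 ± 0.22, limma adjusted p = 0.874). Cars read 7.82, 7.85 and 9.33 in control and 7.47, 6.91 and 8.54 in Cre, lower in Cre for each number within overlapping ranges (−0.69 ± 0.57, limma adjusted p = 0.685). Iars, singled out after its values were seen, read 11.47, 11.24 and 11.48 in control and 11.49, 11.49 and 11.60 in Cre, a separation without overlap but of small size (0.13 ± 0.24, limma adjusted p = 0.877).

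**Figure D3:**
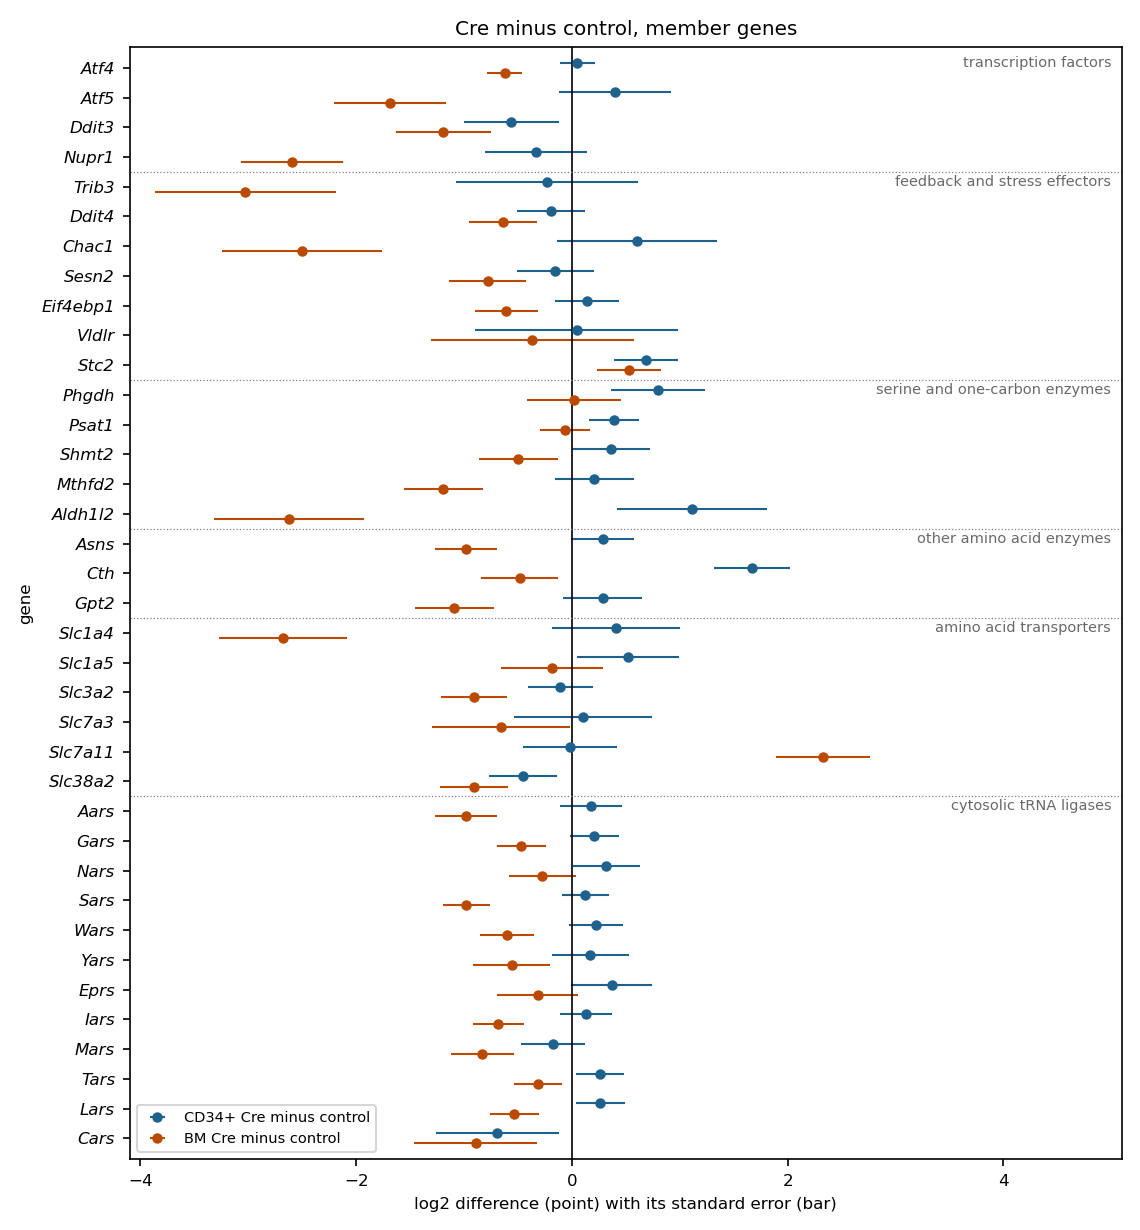
Log2 difference, Cre minus control, with its standard error as a bar, for each member in CD34+ cells (blue) and BM cells (orange). Orange points lie left of zero for 34 of 37 members, with Slc7a11 far to the right, and blue points scatter around a median of 0.21 with Cth the farthest out.

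Genes of the same pathways that are not members were counted in 8 lists, drawn up with earlier results of these data known. Of 109 such genes measured, 0 were called in CD34+ cells (limma), and 12 had an unadjusted p under 0.05, near the all-gene shares of 0.727% and 12%. In BM, the 7 other cytosolic tRNA ligases measured had a median of 0.22 with 6 above zero and 0 past the threshold (2 at an unadjusted p under 0.05, limma), beside −0.58 for the 12 member ligases. The 13 mitochondrial ligases had a median of 0.01, and 1, Aars2, was higher past the threshold (0.72 ± 0.19). The folate and methionine cycle genes had a median of 0.04, with 0 of 11 past the threshold (3 at an unadjusted p under 0.05, limma). Of all genes, 43% lay above zero in BM and 16.7% passed the threshold.

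Of 13 genes for the eIF2 kinases, eIF2 and its phosphatases, which act upstream of Atf4, 10 lay above zero in BM, as did 43% of all genes. Without overlap, 5 were higher (17.3% of all genes) and 3 lower (23.4%). Past the threshold, Eif2b4, a subunit of the eIF2 exchange factor, was higher (0.64 ± 0.19) and Ppp1r15a, an Atf4-induced eIF2 phosphatase subunit, was lower (−0.89 ± 0.28), and the median of the 13 was 0.23. Of 21 endoplasmic reticulum chaperone and unfolded protein response genes, 15 lay above zero, and the median was 0.28. Beside the same shares of all genes, 10 of the 21 were higher and 3 lower without overlap. There the disulfide-forming Pdia4 and Ero1b were higher (0.89 ± 0.17 and 0.89 ± 0.19), and Ero1a, undetected on all BM Cre arrays, was lower by at least 1.65-fold.

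Partners and further targets were mixed. Among 10 factors that can pair with Atf4, Cebpa, a granulocyte factor, was at least 4.59-fold higher. It was detected on the BM Cre arrays alone and was kept only through that group. Cebpb was higher (1.24 ± 0.28) and Cebpg, an Atf4 partner and target, was lower (−0.56 ± 0.18). Of 23 other Atf4 targets, 7 were lower and 4 higher past the threshold (8.13% and 8.59% of all genes), with a median of −0.51. The lower ones included Gabarapl1, an autophagy gene (−1.11 ± 0.22), and the higher ones Gadd45b, a stress-induced growth arrest gene (1.75 ± 0.25). The 14 other amino acid transporters had 5 lower and 4 higher past the threshold, beside the same shares of all genes, around a median of 0.02. Lower were for instance the glycine carrier Slc6a9 (−1.55 ± 0.33) and Slc7a4 (−0.90 ± 0.19), and higher the aromatic amino acid carrier Slc16a10 (1.60 ± 0.18).

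**Figure D4:**
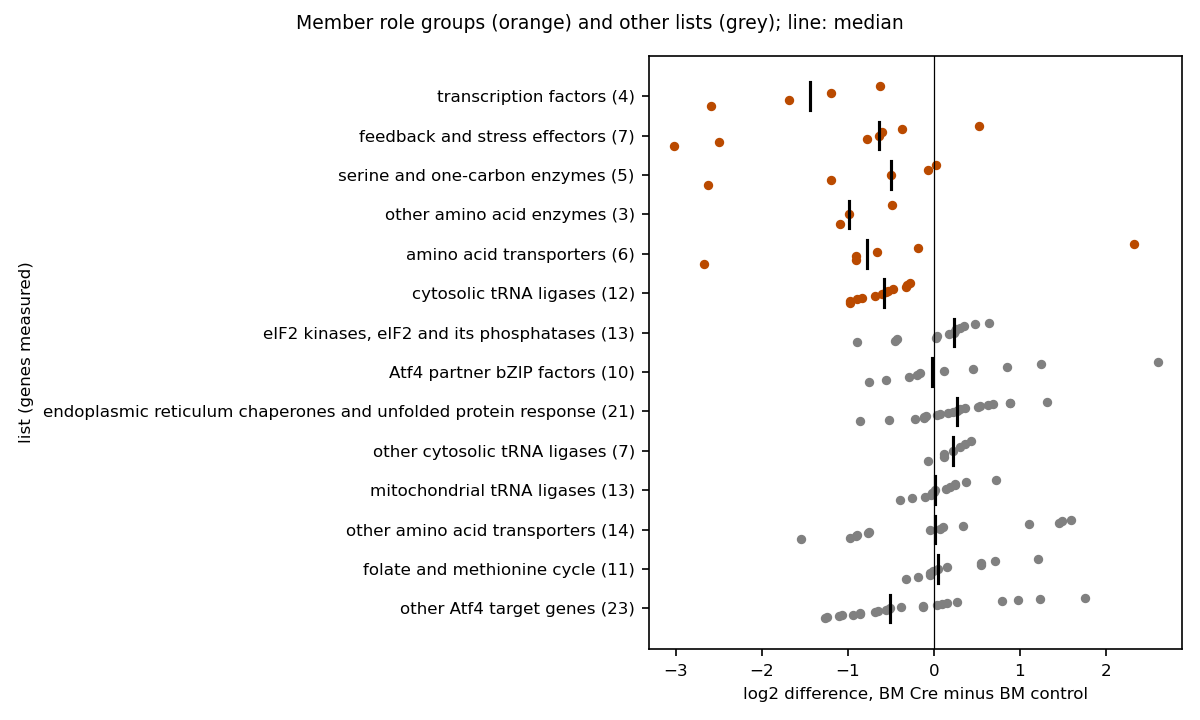
Log2 difference in BM, Cre minus control, with a point for each gene and a line at the list median, for the 6 role groups of members (orange) and 8 other pathway lists (grey), with the number of genes measured in parentheses. The orange medians run from −1.44 to −0.50, and of the grey ones the other Atf4 targets are the lowest at −0.51.

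The populations were next set side by side within each arm, again as a description, since BM arrays chose the genes. Under the control virus 11 of 37 members differed between CD34+ and BM cells past the threshold (38% of all genes), 6 higher (20.2%) and 5 lower (17.8%) in CD34+ cells, with a median of −0.03 against 0.07 over all genes. With median scaling the split was 8 higher and 2 lower, and the members' median was 0.20 against 0.30 over all genes. The arrays did not overlap for 8 members that were higher (29.8% of all genes) and 7 that were lower (24.6%). Slc3a2 was the lowest in CD34+ cells relative to BM (−2.69 ± 0.30), followed by Tars, the threonine ligase (−1.72 ± 0.22). By the probe used, Slc7a3 was the highest (2.53 ± 0.64), but its other kept probe gave 0.11, so the probes of Slc7a3 disagree. Atf4 itself was lower in CD34+ control than in BM control on every array (−0.93 ± 0.16), while Ddit3 (1.51 ± 0.44) and Sesn2 (1.54 ± 0.36) were higher on every array. The count became 7 without BM control array 1 or without BM control array 3, and 6 in the authors' table.

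With Cre, 21 members differed between CD34+ and BM cells past the threshold (48.9% of all genes), 19 higher (27.5%) and 2 lower (21.4%) in CD34+ cells, with a median of 0.92 against 0.13 over all genes. Aldh1l2 (3.69 ± 0.69), Slc7a3 (3.29 ± 0.64), Trib3 (3.00 ± 0.84) and Nupr1 (2.87 ± 0.47) were the farthest above BM Cre, and Slc3a2 (−1.89 ± 0.30) and Tars (−1.14 ± 0.22) were the members below it. The other kept Slc7a3 probe gave 0.05 here. Atf4 differed by −0.26, without passing, and its other kept probe lay on the other side of zero, at 0.32. Both population comparisons share arrays with the Cre comparisons, so these counts are not separate evidence of them.

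The members varied together from array to array within a group. The F4 array was the highest of its group for 33 of 37 members in CD34+ control and for 31 in CD34+ Cre, against 40% and 41.7% of all genes. In BM, array 2 was the highest for 29 members in control and 33 in Cre, against 33.3% and 36.3% of genes, and the lowest was control array 1 for 30 members and Cre array 3 for 31. The members' median deviation from the group mean was 0.48 and 0.30 on the F4 arrays, −0.29 on BM control 1, 0.25 on BM control 2, 0.51 on BM Cre 2 and −0.53 on BM Cre 3, while the medians over all genes stayed within 0.02 of zero. The median SD within a group was 0.435 for members and 0.226 for all genes in CD34+ control, 0.274 and 0.253 in CD34+ Cre, 0.343 and 0.156 in BM control, and 0.565 and 0.21 in BM Cre.

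**Figure D5:**
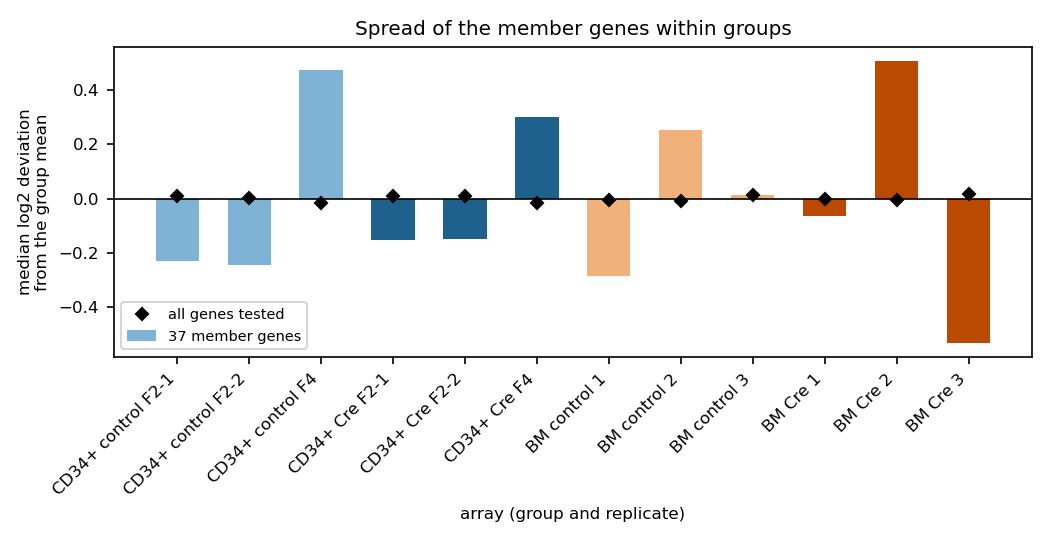
Median log2 deviation from the group mean over the 37 members (bars) and over all genes (diamonds) on each of the 12 arrays. The F4 arrays and BM arrays 2 stand above their groups, BM Cre 3 stands 0.53 below its group, and the diamonds lie near zero.

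Cre minus control was also taken in BM pairs of equal repeat number. The labels do not say whether equal numbers share a marrow, and this comparison chose the genes. The members' median Cre minus control difference was −0.46 in BM pair 1, −0.49 in pair 2 and −1.11 in pair 3, and 31, 29 and 35 of 37 members lay below zero in these pairs. Below zero in all 3 pairs were 26 members (70.3%), against 35.4% of all genes. Of the 32 kept probes not used for a gene's value, 28 lay below zero in BM and 30 had the sign of the one used, again in the comparison that chose the genes. Among the 32 was the Slc7a11 probe that was kept only through the BM Cre arrays.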

How the data were processed

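Total RNA of 12 samples was hybridised to Illumina BeadChips with 1 colour. The deposited scanner table gives, per the file headers, intensity beside detection p-value for 45281 probes, and its values (−32.7 to 70482) show a subtracted background. The authors also deposited a value table of linear intensity with low values at 24, whose method is not stated and which served as an alternative. RMA is named in the submitters' processing notes, with no role given.

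Intensities were corrected by normexp using the detection p-values, quantile normalised and taken to log2 after adding 16 (neqc in limma 3.58.1 under R 4.3.3). Genes took their brightest probe detected at p under 0.05 on at least 3 of 12 arrays. A limma fit of 4 group means over 12 arrays with an intensity trend (lmFit, eBayes) shared the spread, and p-values were adjusted by Benjamini-Hochberg over 10315 genes. The fit was tested on simulated data. "At least" folds set the brighter group's mean against, per dim array, its own signal or the array's lowest detected one, whichever was higher. Members, lists, tests and the rule for named genes were chosen with earlier results of these data known. Array values are given for Atf4, Trib3, Slc1a4, Aldh1l2 and up to 3 members per role with the largest Cre difference, with Vldlr and Iars added after their values were seen; other pathway genes are up to 3 per list by smallest p. Deviations of samples of equal number correlated at 0.372, 0.353 and 0.502 in CD34+ and at 0.134, 0.429 and 0.365 in BM. Unlike repeats of marrow number 2 did so as much (0.378 and 0.356), and BM arrays of unlike number ran from −0.372 to 0.0466. The numbers are the marrow and repeat numbers of the labels, and fits with this block are given where they alter a call.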

Additional observations from a re-analysis of the deposited data

Results flagged for a closer look

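For 2 members all BM Cre arrays lay below the BM controls while all CD34+ Cre arrays lay above the CD34+ controls, a pattern shown by 0.737% of all genes. Aldh1l2 differed by 1.12 in CD34+ cells and by −2.63 in BM, and Iars by 0.13 in CD34+ cells and by −0.68 in BM, all on the log2 scale. By marrow, the CD34+ difference of Aldh1l2 was 1.60 in number 2 and 0.15 in number 4. The difference between the populations was not tested, and the BM values belong to the comparison that chose the genes.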

How the results depend on the processing

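In CD34+ cells the count of members called, 0 as reported, became 1 with no background correction, in the authors' table, with only the compared groups in the fit, with marrow number and repeat as a replicate block, and without both number 4 arrays. It became 2 with the replicate block of marrow and BM repeat numbers, and ranged from 0 to 1 when each array was left out in turn. The member was Cth in each of these cases, with Slc38a2 beside it under that block. In BM the 12 members past the threshold became 5 in the authors' table, 24 with the replicate block and 2 without both arrays of repeat 3 (an alternative chosen after the data were seen, as was leaving out both number 4 arrays), with a range of 4 to 17 when each array was left out. Between CD34+ control and BM control the 11 became 6 in the authors' table and 7 to 10 when each array was left out. Between CD34+ Cre and BM Cre no alternative moved the 21 by over 1.5 times, though median scaling gave 28. In the Cre comparisons, no member that passed the threshold reversed its direction under any alternative run. The direction of single members was not followed over the alternatives in the comparisons between populations. Median in place of quantile scaling raised the median of all genes between the populations from 0.07 to 0.30 under control and from 0.13 to 0.38 under Cre, so those differences are relative to these shifts. A block for slides was not run, because the headers used here name no slide. With 3 arrays a group, and probes near background for Cth, Vldlr and Stc2, small differences in these members were not detectable.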
